A study of Homo sapiens with 30 samples.

Results

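PTX3, TNFAIP6, SAA1, SAA2, HAS2, CD44 and SOD2 form a set of acute-phase and hyaluronan-related genes, 7 of the 63138 genes counted in this study. The set was chosen by symbol, and TNFAIP6 and SAA2 entered it because they were among the largest rises with cytokines, so for all 7 genes TNF and IL1b against Control are given as a description with no test. Between IL1b and TNF only PTX3, HAS2, CD44 and SOD2 were tested, since TNFAIP6 and SAA2 were picked on the same libraries and SAA1 shares sequence with SAA2. RNA was sequenced from the human line hCMEC/D3, which derives from endothelium of small brain vessels, was made immortal and serves in culture as a model of the blood-brain barrier. There were 30 libraries in 10 groups of 3. In the direct groups the cells were kept for 12 h in serum-free medium, either alone (Control) or with 25 ng/mL TNFα (TNF), 10 ng/mL IL-1β (IL1b), 50 ng/mL C5a, a complement fragment (C5a), or 200 nM epinephrine (Epinephrine). In the vesicle groups, named EV-Control, EV-TNF and so on after the donor cells' treatment, cells of the same line received extracellular vesicles enriched from supernatants of cells stimulated in those ways. The labels give 12 h for the vesicle groups as well, but no amount of vesicles. All groups are of 1 cell line, and nothing in the labels says that the 3 libraries of a group came from separate cultures, so p-values measure the spread between these libraries, which may be technical.

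Acute-phase proteins are secreted in inflammation, mostly by the liver but also by stromal and endothelial cells, and their genes respond to the NF-κB and STAT3 pathways downstream of TNF, interleukin 1 and interleukin 6. Hyaluronan is a long sugar polymer that synthases extrude from the cell surface into the pericellular coat and the endothelial glycocalyx. TNFAIP6 (TSG-6) transfers heavy chains onto hyaluronan, PTX3 can bind the resulting complex, and CD44 is the main cell surface receptor for the polymer.

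Library totals ran from 16643961 to 22112326 counts, and 14340 to 15196 genes had at least 10 counts. Levels are CPM, counts relative to library size after edgeR's trimmed-mean (TMM) scaling, and all values with ± are the mean and SD of 3 libraries. Of 12 endothelial markers 11 reached 1 CPM, with EMCN at 0.665 CPM at most. The summed endothelial markers stood at 1270 to 1310 CPM in Control, 1320 to 1370 CPM in TNF, and, below every Control library, 1010 to 1050 CPM in IL1b, 1000 to 1050 in C5a and 1080 to 1140 in Epinephrine. They stood at 894 to 915 CPM in EV-Control, 886 to 900 in EV-C5a and 965 to 1020 over EV-TNF, EV-IL1b and EV-Epinephrine. Of 6 pericyte and smooth muscle markers 5 reached 1 CPM, led by CSPG4 at 251 to 442 CPM. Their sum was 371 to 423 CPM in Control, higher in TNF (465 to 486) and lower in IL1b (334 to 350), C5a (348 to 370) and Epinephrine (321 to 351). It was 418 to 439 CPM in EV-Control, 407 to 421 in EV-C5a, and higher in EV-TNF (445 to 457), EV-IL1b (451 to 476) and EV-Epinephrine (492 to 511). Of 4 astrocyte markers 1 reached 1 CPM, with AQP4 at 0 in all 30 libraries, and of 6 leukocyte markers 1 did, with AIF1 at 0 in 27. The 6 hepatocyte markers summed to 24.6 to 25.4 CPM in TNF and 5.82 to 7.93 CPM in Control, most of it SERPINA1, which is also an acute-phase gene, while ALB was at 0 in 25 libraries and at most 0.164 CPM. The part of these markers in the results was not tested, and in bulk RNA fewer cells of a type cannot be told apart from less RNA per cell.

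SAA1 and SAA2 encode the inducible serum amyloid A apolipoproteins and lie near each other on chromosome 11 (GRCh38, GENCODE 29), SAA1 at 18266174 to 18269977 on the plus strand and SAA2 at 18239223 to 18248643 on the minus strand. Their coding sequences, 366 bases each, differ at 11 bases, and their proteins of 122 residues differ at 8. The first 240 coding bases of each are shown because they limit what the counts can tell. Capitals mark the 3 bases that differ in this stretch.
SAA1: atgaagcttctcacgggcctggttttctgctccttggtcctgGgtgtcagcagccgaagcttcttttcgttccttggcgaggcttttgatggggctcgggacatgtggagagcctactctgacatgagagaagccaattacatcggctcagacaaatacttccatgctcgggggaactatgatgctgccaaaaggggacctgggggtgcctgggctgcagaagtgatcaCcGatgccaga
SAA2: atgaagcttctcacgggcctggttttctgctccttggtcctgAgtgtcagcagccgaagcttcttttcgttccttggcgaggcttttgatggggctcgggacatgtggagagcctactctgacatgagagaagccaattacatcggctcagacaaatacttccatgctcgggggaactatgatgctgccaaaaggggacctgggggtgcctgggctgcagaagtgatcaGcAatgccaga
Of all windows of 100 coding bases in SAA1, 32.6% occur letter for letter in SAA2, and of windows of 150 bases 17.1% do. How the authors' counting treated reads that match both genes is not given in the sources used here, so the split between SAA1 and SAA2 is uncertain and their sum, with the readthrough gene SAA2-SAA4, is given beside them.

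The stretches just before PTX3 and TNFAIP6 are shown because they hold a match to a motif of factors that act downstream of the cytokines. They are RefSeq sequence (GRCh38.p14), PTX3 from chr3:157436600-157436788 and TNFAIP6 from chr2:151357342-151357591, both on the plus strand. Capitals mark 2 overlapping matches, 1 on each strand, to the κB motif in PTX3 and a match to the AP-1 motif TGANTCA in TNFAIP6.
PTX3: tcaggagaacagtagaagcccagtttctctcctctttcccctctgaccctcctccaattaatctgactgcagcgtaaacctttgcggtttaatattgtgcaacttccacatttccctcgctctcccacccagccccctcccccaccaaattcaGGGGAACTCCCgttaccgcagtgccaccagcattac
TNFAIP6: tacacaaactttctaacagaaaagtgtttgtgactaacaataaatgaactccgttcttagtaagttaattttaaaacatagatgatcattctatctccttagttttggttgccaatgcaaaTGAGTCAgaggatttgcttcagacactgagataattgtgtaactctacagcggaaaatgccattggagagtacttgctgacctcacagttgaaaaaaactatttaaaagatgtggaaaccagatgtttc
Searched on both strands over the 250 bases before each start, the κB motif was found in 5.21% and the AP-1 motif in 6.57% of 35116 windows, and a match describes the letters only. HAS2 was left out of the search. Of the 6 members looked up 4 had a window, and no match was found in the CD44 window or the 4 SOD2 windows.

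All 7 genes were higher in TNF and in IL1b than in Control, with no overlap between the libraries. In these comparisons 52.7% (TNF) and 46.6% (IL1b) of the 15908 genes tested passed an adjusted p of 0.05, 27.5% and 24% as higher, and 30.7% and 28% were higher with no overlap. Nothing is read from the members' count, since the choice of members drew on these libraries. All comparisons with Control share its 3 libraries. TNFAIP6 and SAA2 were picked on rises over these same libraries. Nothing is therefore read from tests of these genes, or of sums with SAA2, that use Control. Scaling by total counts in place of the trimmed mean moved the median of all genes in TNF against Control to -0.29 on the log2 scale and the share of passing genes that were higher from 52.1% to 22.7% (IL1b from 51.5% to 38.6%), so changes here are relative to the trimmed mean.

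PTX3 (ENSG00000163661, chromosome 3, 157436789 to 157443628) encodes the long pentraxin, a secreted pattern recognition protein made locally in inflamed tissue. It stood at 202, 190 and 213 CPM in the Control libraries, at 2550, 2730 and 2670 CPM in TNF and at 1380, 1370 and 1410 CPM in IL1b. The log2 fold change was 3.72 (SE 0.086) in TNF and 2.79 (SE 0.083) in IL1b. All IL1b libraries lay below all TNF libraries. An antisense neighbour, VEPH1, had 197 to 406 counts in a library.

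TNFAIP6 (ENSG00000123610, chromosome 2, 151357592 to 151380048) was close to silent outside the cytokine groups. The Control libraries held 6, 0 and 0 counts, where a count of 0 allows up to 3 counts, and the TNF libraries held 580, 838 and 754 counts (38.7, 45 and 43.6 CPM). IL1b libraries held 1007, 821 and 821 counts (51.9, 43.4 and 43.7 CPM). On summed counts the ratio to Control was 394 in TNF (95% exact interval 181 to 1070) and 428 in IL1b (197 to 1170), intervals that cover counting error only. All 6 Control counts came from Control 1, so both ratios rest on that library, and without it no finite ratio can be given. The TNF and IL1b libraries overlapped.

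SAA1 (ENSG00000173432) stood at 4.71, 5.07 and 3.32 CPM in Control, at 83.7, 87.5 and 85.6 CPM in TNF and at 75.5, 66.8 and 69 CPM in IL1b. SAA2 (ENSG00000134339) stood at 0.952, 0.267 and 1.07 CPM in Control, at 36, 34.8 and 33.5 CPM in TNF and at 33.1, 32 and 32 CPM in IL1b. The ratio of summed SAA2 counts to Control was 45.8 (33.7 to 63.8) in TNF and 42.7 (31.5 to 59.5) in IL1b. The 3 genes SAA1, SAA2 and SAA2-SAA4 summed gave log2 fold changes of 4.55 (SE 0.099) in TNF and 4.33 (SE 0.099) in IL1b. The constitutive family member SAA4 had 35 counts summed over TNF, 28 over IL1b and 0 to 5 in each other group, and SAA2-SAA4 had 0 to 4 counts in a library.

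SAA2 made up 28.1% to 30.1% of the counts of SAA1 and SAA2 in the TNF libraries and 30.5% to 32.4% in the IL1b libraries. In Control the share was 16.8% (95% exact interval 10.3 to 25.3), 5% (1.64 to 11.3) and 24.4% (15.3 to 35.4). Group means elsewhere ran from 10.2% in EV-TNF to 16.9% in EV-C5a. The highest library outside the cytokine groups, C5a 3, had 27.6% (16.7 to 40.9) from 16 of 58 counts, so outside these groups the share rests on few reads, and the uncertain split applies to all of them.

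**Figure D1:**
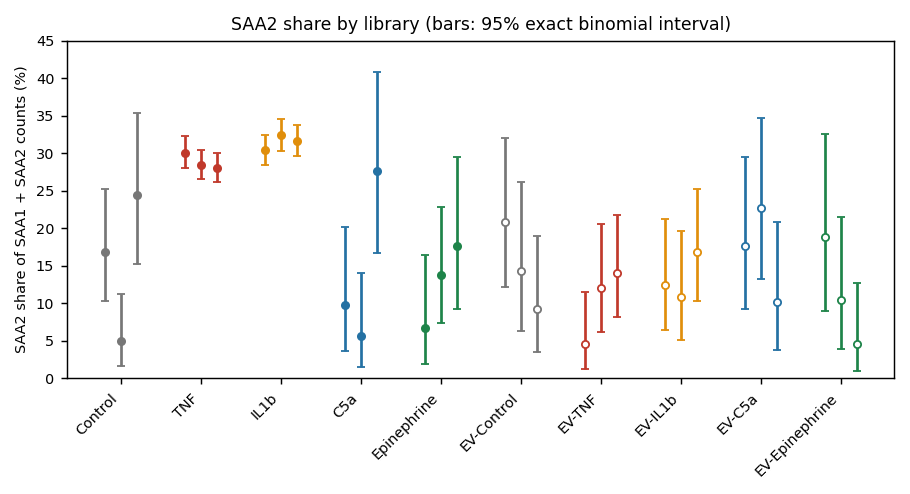
Share of SAA2 in the counts of SAA1 and SAA2 (%, vertical axis) in each library of the 10 groups, with 95% exact binomial intervals that cover counting error only; filled points are direct groups and open points vesicle groups. The TNF and IL1b libraries sit between 28.1% and 32.4% with narrow intervals, while libraries of the other groups spread from 4.55% to 27.6%.

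HAS2 (ENSG00000170961, chromosome 8, 121612116 to 121641390) encodes a hyaluronan synthase of the plasma membrane and had the lowest mean of the 7 genes in TNF. Counts were 0, 10 and 10 in Control, 48, 89 and 55 in TNF and 25, 27 and 27 in IL1b. The ratio of summed counts to Control was 10.5 (6.58 to 17.5) in TNF and 3.83 (2.32 to 6.61) in IL1b. Its antisense RNA HAS2-AS1 had 0 to 5 counts in a library.

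CD44 (ENSG00000026508, chromosome 11, 35138870 to 35232402) stood at 180, 165 and 178 CPM in Control, at 533, 567 and 530 CPM in TNF and at 510, 500 and 503 CPM in IL1b. The log2 fold changes of 1.64 (SE 0.044) and 1.54 (SE 0.044) were the smallest of the 7 genes in both cytokine groups. SOD2, which encodes the manganese superoxide dismutase of mitochondria and is not a secreted protein, stood at 499, 500 and 527 CPM in Control, at 8890, 9210 and 9330 CPM in TNF and at 3980, 3910 and 3830 CPM in IL1b. Its log2 fold change was 4.17 (SE 0.054) in TNF and 2.95 (SE 0.051) in IL1b. The table's SOD2 identifier, ENSG00000291237, is not in GENCODE 29, where SOD2 is ENSG00000112096 (chromosome 6, 159669057 to 159745186, minus strand). WTAP overlaps it on the opposite strand and rose as well, by 2.01 in TNF (adjusted p = 3.23e-27) and 1.18 in IL1b (adjusted p = 1.61e-19). Since use of the strand in counting is not given in the sources used here, reads of SOD2 and WTAP in their overlap cannot be told apart.

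**Figure D2:**
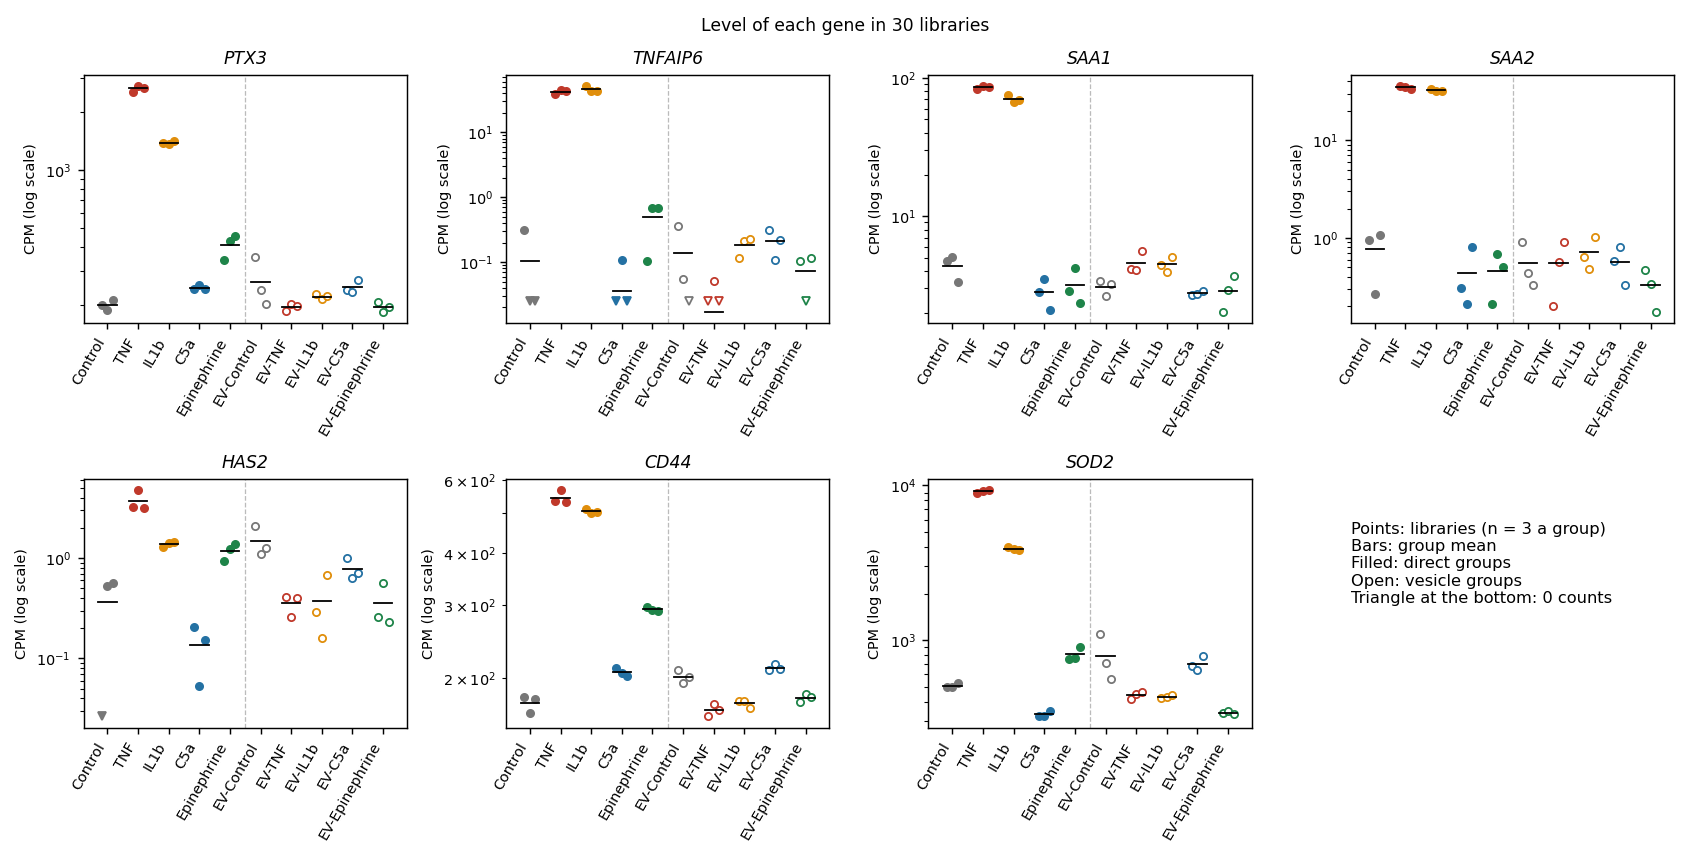
Level of each of the 7 genes (CPM, log axis) in the 30 libraries; points are libraries, bars are means of 3, and triangles at the bottom mark libraries with 0 counts. For all 7 genes every TNF and IL1b library lies above every Control library, while CD44 in the vesicle groups spans 162 to 216 CPM against 530 to 567 CPM in TNF.

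Levels between genes were compared per kilobase of merged exons. In TNF the mean was 1370 CPM per kb for PTX3, 571 for SOD2, 108 for SAA1, 89 for CD44 and 0.888 for HAS2. The SOD2 value is uncertain because its exon length of 16008 bases comes from the other identifier. In Control, PTX3 stood at 104 CPM per kb, SOD2 at 31.8, CD44 at 28.6, SAA1 at 5.49 and HAS2 at 0.0872.

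Between the cytokines, PTX3, HAS2 and SOD2 were lower in IL1b than in TNF, 3 of the 4 members tested there, against 41.4% of all genes (21.4% lower), with no overlap for 51.5%. PTX3 fell by 0.93 on the log2 scale (SE 0.077, adjusted p = 8.04e-08), HAS2 fell by 1.42 (SE 0.35, adjusted p = 0.00123) and SOD2 fell by 1.22 (SE 0.048, adjusted p = 3.57e-21), each with no overlap of libraries. CD44 differed by -0.098 (SE 0.042, adjusted p = 0.0626), with adjusted p of 0.0201 to 0.301 over 15 alternatives. Its direction turned under total-count scaling, to 0.096 (adjusted p = 0.048), which moved the share of passing genes higher in IL1b from 48.1% to 76.1%. The other differences, given without a test, were -0.27 for SAA1, -0.093 for SAA2 and 0.13 for TNFAIP6. The cytokines were given at different doses, 25 and 10 ng/mL.

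Epinephrine raised 4 of the 7 genes and C5a raised 2 and lowered 2. The share of all genes passing was 25.2% for Epinephrine (13.5% higher) and 22.6% for C5a (11.8% higher, 10.8% lower), and libraries did not overlap for 33.9% and 40.4%. With Epinephrine, PTX3, HAS2, CD44 and SOD2 rose, without overlap of libraries. With C5a, PTX3 and CD44 rose a little, and SAA1 and SOD2 fell.

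PTX3 stood at 342, 430 and 458 CPM in Epinephrine and at 242, 256 and 242 CPM in C5a, against 190 to 213 CPM in Control. It rose by 1.03 with Epinephrine (SE 0.079, adjusted p = 1.42e-07) and by 0.30 with C5a (SE 0.079, adjusted p = 0.0131). The C5a value did not pass in a fit of all 30 libraries (0.29, adjusted p = 0.126). CD44 stood at 296, 292 and 291 CPM in Epinephrine and at 212, 206 and 202 CPM in C5a. It rose by 0.76 (SE 0.044, adjusted p = 1.55e-15) and 0.26 (SE 0.044, adjusted p = 3.47e-05), and both groups lay above every Control library.

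SOD2 moved in opposite directions, at 756, 771 and 900 CPM in Epinephrine and 323, 322 and 347 CPM in C5a. It rose by 0.68 with Epinephrine (SE 0.048, adjusted p = 4.82e-13) and fell by 0.61 with C5a (SE 0.049, adjusted p = 9.05e-12). Neither group overlapped Control. WTAP rose by 0.23 with Epinephrine (adjusted p = 0.00156, or 0.168 in the fit of all 30 libraries) and differed by -0.087 with C5a (adjusted p = 0.271).

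HAS2 had 18, 22 and 30 counts in the Epinephrine libraries and 4, 1 and 3 in C5a. It rose by 1.71 with Epinephrine (SE 0.48, adjusted p = 0.00695), and without the library Control 1, which held 0 counts, the value was 1.13 and did not pass (adjusted p = 0.0592). With C5a it differed by -1.34 (SE 0.7, adjusted p = 0.176), and passed without Control 1 (-1.93, adjusted p = 0.0198). Between the 2 stimuli HAS2 was higher in Epinephrine by 3.06 (SE 0.57, adjusted p = 0.000122).

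SAA1 did not follow the genes that rose with Epinephrine. It stood at 2.89, 4.24 and 2.34 CPM in Epinephrine and at 2.85, 3.49 and 2.11 CPM in C5a, overlapping Control in both. It fell by 0.63 with C5a (SE 0.19, adjusted p = 0.0147), a call lost without C5a 3 (adjusted p = 0.107), Control 1 (0.076) or Control 2 (0.0979). With Epinephrine it differed by -0.49 (SE 0.19, adjusted p = 0.0532), and the 16 alternatives gave adjusted p of 0.00158 to 0.312, 10 of them under 0.05. The sum of SAA1, SAA2 and SAA2-SAA4 fell by 0.65 with C5a (SE 0.16, adjusted p = 0.00185) and by 0.52 with Epinephrine (SE 0.15, adjusted p = 0.0104). SAA2 alone, with 26 and 27 counts summed over each group, differed by -0.75 (adjusted p = 0.237) and -0.70 (adjusted p = 0.257). Nothing is read from the tests of SAA2 or of the sum, since SAA2 was picked on these Control libraries.

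TNFAIP6 had 2, 12 and 15 counts in the Epinephrine libraries and 0, 2 and 0 in C5a. Against Control the ratio of summed counts was 4.58 (1.87 to 13.5) and the test gave 2.14 (SE 0.84, adjusted p = 0.072). It passed without Control 1, which held all 6 Control counts (adjusted p = 0.00269), and without Epinephrine 1 (adjusted p = 0.00398), with 0.00221 to 0.235 over 14 alternatives. With C5a the adjusted p was 0.544. Between Epinephrine and C5a, 5 of the 7 genes passed, all higher in Epinephrine, against 17.1% of all genes (8.98% higher), with no overlap for 4 of the 7 against 29.8%. These were PTX3 by 0.73 (adjusted p = 6.67e-06), CD44 by 0.50 (adjusted p = 3.2e-11), SOD2 by 1.29 (adjusted p = 7.91e-21), HAS2 as above and TNFAIP6 (adjusted p = 0.0221). TNFAIP6 passed the count filter of the direct fit only through the TNF and IL1b libraries, on which it was picked. Nothing is therefore read from its tests in this paragraph, and its call against C5a is included in the 5. The TNFAIP6 call was lost without C5a 1 (adjusted p = 0.0907), C5a 3 (0.0928), Epinephrine 2 (0.0805) or Epinephrine 3 (0.0883), and SAA1 and SAA2 did not pass (adjusted p = 0.704 and 0.968). Their sum with SAA2-SAA4 did not pass either (adjusted p = 0.665).

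**Figure D3:**
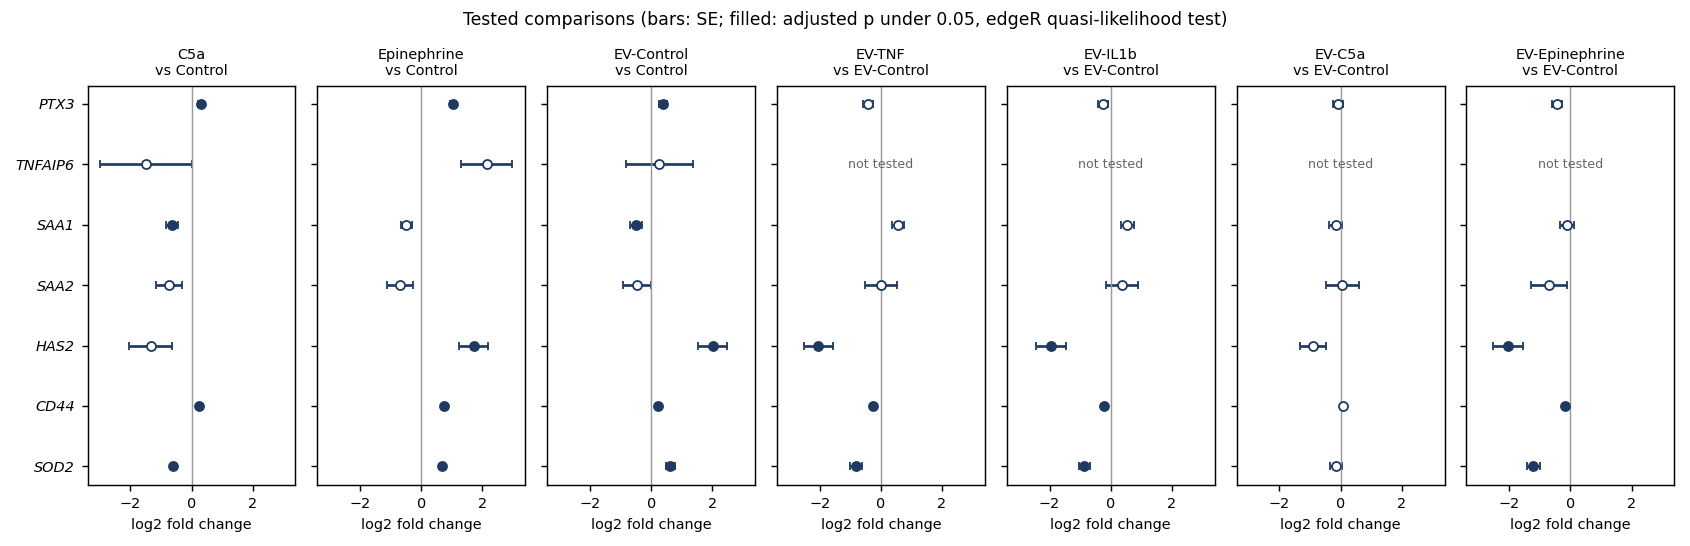
Log2 fold change (horizontal axis, bars SE) of the 7 genes in 7 comparisons, filled where the adjusted p of edgeR's quasi-likelihood test was under 0.05; TNFAIP6 had too few counts to be tested within the vesicle groups. HAS2, CD44 and SOD2 lie to the right of 0 in EV-Control against Control and to the left of 0 in EV-TNF, EV-IL1b and EV-Epinephrine against EV-Control.

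Vesicles from unstimulated cells came with higher levels of several of these genes than medium alone. Here the vesicles cannot be told apart from anything else that set the vesicle groups apart from the direct groups. In EV-Control against Control, 5 of the 7 genes passed, 4 higher and 1 lower, against 21.9% of all 16691 genes tested (12.1% higher, 9.8% lower), with no overlap for 3 against 34.9%. Total-count scaling moved the share of passing genes that were higher from 55.3% to 42.6%. HAS2 had 35, 20 and 23 counts in EV-Control and rose by 2.01 (SE 0.48, adjusted p = 0.000979). CD44 stood at 209, 195 and 201 CPM and rose by 0.21 (SE 0.04, adjusted p = 4.92e-05). Both lay above every Control library.

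SOD2 stood at 1090, 708 and 558 CPM in EV-Control and PTX3 at 354, 239 and 203 CPM. The library EV-Control 1 was the highest of the 3 for both genes. SOD2 rose by 0.63 (SE 0.14, adjusted p = 0.00268), or 0.32 without EV-Control 1 (adjusted p = 0.0139), and did not pass in a fit of these 2 groups alone (adjusted p = 0.217). PTX3 rose by 0.39 (SE 0.13, adjusted p = 0.0362), a call lost without EV-Control 1 (0.14, adjusted p = 0.378), Control 1 (adjusted p = 0.0796) or Control 2 (adjusted p = 0.117). SAA1 fell by 0.50 (SE 0.19, adjusted p = 0.0486) and the call was lost without any one of 5 of the 6 libraries (adjusted p = 0.0609 to 0.24), Control 3 being the exception. The sum of SAA1, SAA2 and SAA2-SAA4 differed by -0.497 (SE 0.17, adjusted p = 0.0247). TNFAIP6 and SAA2 did not pass (adjusted p = 0.9 and 0.547).

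Vesicles from cells stimulated with TNF, IL1b or epinephrine gave lower HAS2, CD44 and SOD2 than vesicles from unstimulated cells. In each of these comparisons 3 of the 6 members tested passed, all lower, against 13.3% of all 15918 genes tested for EV-TNF (7.42% lower), 14.6% for EV-IL1b (8.14% lower) and 19.7% for EV-Epinephrine (10.5% lower). Total-count scaling moved the share of passing genes that were higher in EV-Epinephrine from 46.4% to 60.2%. Libraries did not overlap for 27.1%, 28.5% and 34.1% of all genes. For EV-C5a 0 of 6 passed with edgeR, with DESeq2 and in each fit without 1 library, and 1 had an unadjusted p under 0.05. There 0.0503% of all genes passed (8 genes), and libraries did not overlap for 1 member, HAS2, against 10.9% of all genes. All 4 comparisons share the EV-Control libraries, whose means were 1.49 CPM for HAS2, 202 for CD44 and 786 for SOD2. In EV-TNF, EV-IL1b and EV-Epinephrine, HAS2 (0.353, 0.378 and 0.354 CPM) stood near Control (0.366 CPM). CD44 did too (168, 174 and 179 CPM, Control 174 CPM). SOD2 stood at 445, 432 and 340 CPM, with 509 CPM in Control. These vesicle groups were not tested against Control.

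HAS2 had 8, 5 and 7 counts in EV-TNF, 5, 3 and 12 in EV-IL1b and 5, 10 and 4 in EV-Epinephrine. It fell in all 3, with log2 fold changes of -2.05 (SE 0.48, adjusted p = 0.00173), -1.96 (SE 0.48, adjusted p = 0.00267) and -2.05 (SE 0.49, adjusted p = 0.00128). In EV-C5a it had 19, 12 and 13 counts, all below EV-Control in CPM, with a difference of -0.91 (SE 0.43, adjusted p = 0.637).

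CD44 stood at 162, 173 and 168 CPM in EV-TNF, 176, 176 and 170 CPM in EV-IL1b and 175, 183 and 180 CPM in EV-Epinephrine. It fell in all 3, with log2 fold changes of -0.27 (SE 0.037, adjusted p = 1.88e-07), -0.21 (SE 0.037, adjusted p = 2.18e-05) and -0.17 (SE 0.037, adjusted p = 0.000516). These falls, though small, passed in all 15 alternatives of each comparison. In EV-C5a CD44 was at 209, 216 and 210 CPM, and its difference was 0.07 (adjusted p = 0.686).

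SOD2 stood at 419, 450 and 465 CPM in EV-TNF, 425, 432 and 439 CPM in EV-IL1b and 340, 347 and 332 CPM in EV-Epinephrine. It fell in all 3, with log2 fold changes of -0.82 (SE 0.19, adjusted p = 0.0177), -0.86 (SE 0.19, adjusted p = 0.013) and -1.21 (SE 0.2, adjusted p = 0.00124), with all libraries below EV-Control. Without EV-Control 1 the values were -0.51 in EV-TNF and -0.55 in EV-IL1b, and still passed. The EV-TNF call was lost without EV-TNF 1 (adjusted p = 0.0681) or EV-TNF 2 (adjusted p = 0.0543), and in fits of only the 2 groups compared none of the 3 passed (adjusted p = 0.2, 0.171 and 0.0617). WTAP, on the opposite strand, differed by -0.33 (adjusted p = 0.187), -0.28 (adjusted p = 0.25) and -0.46 (adjusted p = 0.0511). WTAP passed as lower in EV-Epinephrine in 6 alternatives, among them DESeq2 (adjusted p = 0.0118), the fit of all 30 libraries (0.00606) and the fits without EV-Control 1 (-0.24, 0.0066) or EV-Control 3 (0.00751), and in EV-TNF without EV-Control 3 (0.0354).

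PTX3 stood at 188 to 204 CPM in EV-TNF, 215 to 228 in EV-IL1b and 185 to 208 in EV-Epinephrine, overlapping EV-Control. Its differences were -0.435, -0.255 and -0.43 (adjusted p = 0.118, 0.371 and 0.0976), and EV-Epinephrine and EV-TNF passed without EV-Control 3 (-0.59, adjusted p = 0.0137 and 0.0185). Of 15 alternatives, 3 passed for EV-Epinephrine and 2 for EV-TNF. Without EV-Control 1 the PTX3 differences were -0.175 in EV-TNF (adjusted p = 0.275), 0.00575 in EV-IL1b (0.983) and -0.172 in EV-Epinephrine (0.234). SAA1 was at 4.17, 4.09 and 5.57 CPM in EV-TNF and 4.45, 3.97 and 5.08 CPM in EV-IL1b, above every EV-Control library (3.42, 2.65 and 3.23 CPM), with differences of 0.57 (SE 0.2, adjusted p = 0.0561) and 0.54 (SE 0.21, adjusted p = 0.0733). In EV-TNF SAA1 passed as higher in 3 of 16 alternatives, the fit of all 30 libraries (adjusted p = 0.0385), a mean of at least 50 counts (0.043) and total-count scaling (0.0483). The sum of SAA1, SAA2 and SAA2-SAA4 differed by 0.494 in EV-TNF (SE 0.19, adjusted p = 0.0849) and 0.517 in EV-IL1b (SE 0.2, adjusted p = 0.067). In EV-C5a and EV-Epinephrine the sum did not pass either (adjusted p = 0.943 and 0.598). SAA2 did not pass in any of the 4 comparisons (adjusted p = 0.446 to 1). TNFAIP6 had 0, 1 and 0 counts in EV-TNF and 2, 4 and 4 in EV-IL1b, against 6, 1 and 0 in EV-Control.

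The response to vesicles was set against the direct response to the same stimulus. For Epinephrine, the vesicle response minus the direct response was -1.45 for PTX3 (SE 0.19, adjusted p = 3.78e-06), -3.75 for HAS2 (SE 0.68, adjusted p = 1.63e-05), -0.92 for CD44 (SE 0.056, adjusted p = 1.69e-20) and -1.88 for SOD2 (SE 0.2, adjusted p = 3.56e-07). These 4 of 7 members compare with 24.2% of all genes (12.5% lower). SAA1, SAA2 and TNFAIP6 did not pass (adjusted p = 0.367, 1 and 0.161). For C5a only CD44 passed of 7 (-0.18, SE 0.056, adjusted p = 0.0277), a share near the 11.9% of all genes (6.05% lower), and the call was lost without C5a 1 (adjusted p = 0.0572), Control 2 (0.0932) or EV-Control 1 (0.0592). SOD2, at 0.47 (adjusted p = 0.158), passed without EV-Control 1 (0.76, adjusted p = 0.000193). The sum of SAA1, SAA2 and SAA2-SAA4 did not pass for Epinephrine or C5a (adjusted p = 0.36 and 0.171). For TNF and IL1b the difference is given as values: -4.15 and -3.03 for PTX3, -3.72 and -3.47 for SAA1, -5.51 and -5.03 for SAA2, -1.90 and -1.74 for CD44 and -4.99 and -3.80 for SOD2. It was -4.05 and -3.8 for the SAA sum and -5.39 and -3.88 for HAS2. For TNFAIP6, which had few counts in every vesicle library, it was -11 and -8.17 (SE 1.8 and 1.6).

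Of the other hyaluronan synthases, HAS3 was more abundant than HAS2 in every group per kilobase of exons, 3.71 against 0.0872 CPM per kb in Control. HAS3 rose by 1.03 in TNF (SE 0.088, adjusted p = 1.93e-12), 0.72 in IL1b (SE 0.088, adjusted p = 1.98e-08) and 0.67 with Epinephrine (SE 0.089, adjusted p = 3.84e-07), and fell by 0.49 with C5a (SE 0.097, adjusted p = 2e-04). It stood at 54.5, 37.4 and 28.2 CPM in EV-Control, above all Control libraries (16.2 to 19.2 CPM), and rose by 1.14 (adjusted p = 4.63e-06, or 0.0648 in a fit of these 2 groups alone). Against EV-Control its log2 fold change was -1.62 in EV-TNF (adjusted p = 0.000369), -1.57 in EV-IL1b (adjusted p = 0.000465) and -1.69 in EV-Epinephrine (adjusted p = 0.000192).

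HAS1 was scarce, with 8, 8 and 6 counts in Control and 61, 34 and 23 in EV-Control, a rise of 2.49 (SE 0.5, adjusted p = 0.000108). Against EV-Control it fell, with -2.12 in EV-TNF (adjusted p = 0.000542), -2.98 in EV-IL1b (adjusted p = 1.33e-05) and -2.16 in EV-Epinephrine (adjusted p = 0.000331). Its rise of 1.58 in TNF (adjusted p = 0.00979) was lost without TNF 2 (1.01, adjusted p = 0.165). In EV-C5a neither HAS1 nor HAS3 passed (adjusted p = 0.281 and 0.722), and both did without EV-Control 3 (adjusted p = 0.027 and 0.00377).

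**Figure D4:**
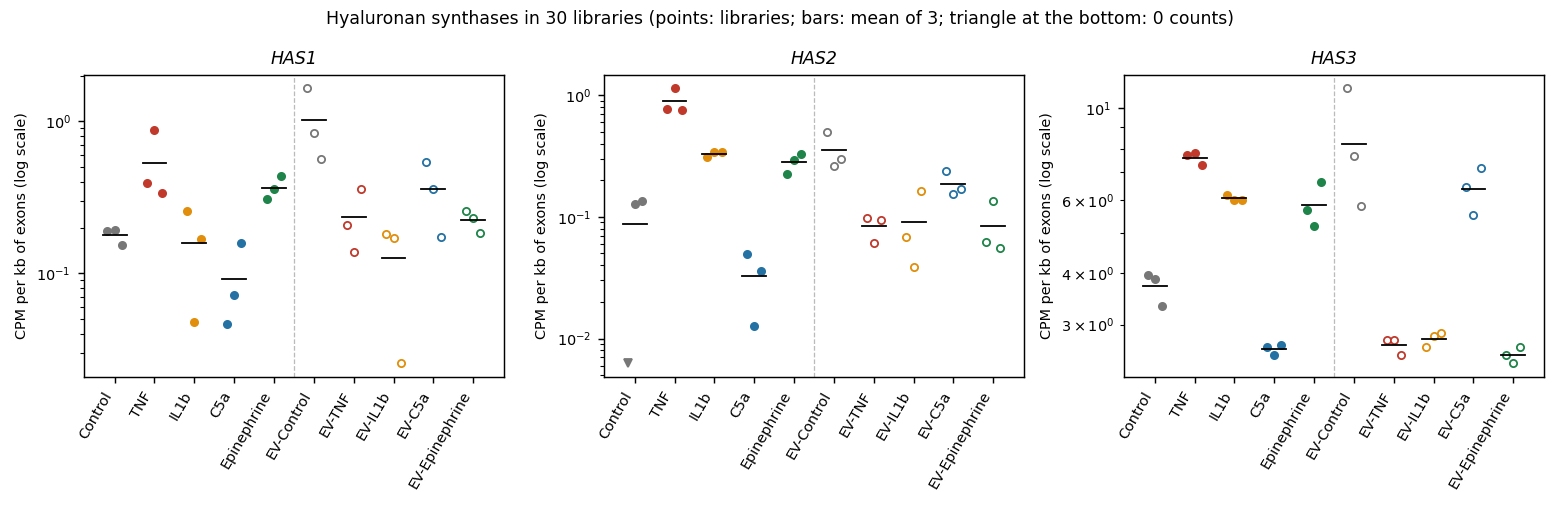
Levels of the 3 hyaluronan synthases (CPM per kb of merged exons, log axis) in 30 libraries; points are libraries, bars are means of 3, and the triangle marks a library with 0 counts. All 3 genes are higher in EV-Control than in EV-TNF, EV-IL1b and EV-Epinephrine, and HAS3 has the highest mean of the 3 in every group.

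Around the synthases, 18 of 19 other genes of hyaluronan synthesis and breakdown were tested, HAS1 and HAS3 among them. In TNF 9 rose and 6 fell (median 0.28 on the log2 scale, all genes -0.012), in IL1b 8 and 7, with Epinephrine 8 and 4 and with C5a 3 and 5. Of all genes tested 52.7% passed in TNF, 46.6% in IL1b, 25.2% with Epinephrine and 22.6% with C5a. UAP1, which makes the activated amino sugar used by the synthases, rose by 1.25 in TNF, UGP2, which makes UDP-glucose, by 1.21, and GFPT2, which starts the amino sugar pathway, by 1.06. HYAL2, a cell surface hyaluronidase, fell in all 4 direct comparisons, with -0.61 in TNF (adjusted p = 1.23e-11), -0.63 in IL1b (adjusted p = 1.1e-11), -0.51 with C5a (adjusted p = 7.44e-09) and -0.46 with Epinephrine (adjusted p = 4.82e-08). In the vesicle groups 7 genes passed in EV-TNF (2 higher), 7 in EV-IL1b (1 higher), 7 in EV-Epinephrine (1 higher) and 0 in EV-C5a with edgeR (1 higher and 1 lower at an unadjusted p under 0.05), where 13.3%, 14.6%, 19.7% and 0.0503% of all genes passed. The EV-IL1b count was 4 without EV-Control 1, and 2 genes passed in EV-C5a without EV-Control 3.

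Of 27 other hyaluronan receptors and binding proteins 15 were tested, and in TNF 8 rose and 5 fell (median 0.39). TLR2, an innate receptor that can respond to hyaluronan fragments, rose by 5.28 in TNF (adjusted p = 4.51e-31) and 2.33 in IL1b (adjusted p = 5.13e-18). HAPLN3, a hyaluronan link protein, rose by 2.07 and 0.40. In IL1b 6 rose and 5 fell, with Epinephrine 3 and 3 and with C5a 2 and 4. The shares of all genes were 52.7% (TNF), 46.6% (IL1b), 25.2% (Epinephrine) and 22.6% (C5a). Of the same 15, in EV-TNF 0 rose and 1 fell, in EV-IL1b 3 and 0 and in EV-Epinephrine 1 and 2. Beside these, 13.3%, 14.6% and 19.7% of all genes passed. In EV-C5a 0 passed with edgeR, with 1 lower at an unadjusted p under 0.05. The EV-IL1b count was 1 without EV-IL1b 1, and the EV-TNF count was 2 without EV-Control 3.

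Of 37 other acute-phase proteins 15 were tested in the direct groups. In TNF 10 rose and 3 fell (median 1.6, all genes -0.012), in IL1b 8 and 2 (median 1.1), with C5a 2 and 6 (5 genes in all without Control 2), and with Epinephrine 4 and 2. These counts stand beside 52.7%, 46.6%, 22.6% and 25.2% of all genes. Complement C3 rose by 2.65 in TNF (adjusted p = 2.98e-32) and 2.85 in IL1b (adjusted p = 1.48e-32) but fell by 0.89 with Epinephrine (adjusted p = 6.66e-16). CFB, the factor B of the alternative complement pathway, rose by 2.46 and 2.11 with the cytokines. The fibrinogen chain gene FGG rose by 1.76 with Epinephrine (adjusted p = 2.38e-17). CRP, the short pentraxin of liver, had 12 counts summed over Control, 2 over TNF and 44 over Epinephrine. In EV-TNF 3 rose and 3 fell of 14 tested, against 13.3% of all genes, a count of 3 genes without EV-Control 1 or EV-Control 2. In EV-IL1b 2 rose and 2 fell (14.6% of all genes), a count of 2 with DESeq2 or without EV-IL1b 1. In EV-Epinephrine 3 rose and 5 fell (19.7%), a count of 5 without EV-Control 1 or EV-Epinephrine 3. In EV-Control against Control 3 rose and 3 fell of 16 tested (21.9%). In EV-C5a 0 passed with edgeR, 3 had an unadjusted p under 0.05 and 1 passed without EV-Control 3.

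Of 24 regulators of the acute-phase response 23 were tested, and in TNF 16 rose and 3 fell (median 0.92), in IL1b 16 and 1 (median 0.46), with Epinephrine 9 and 1 and with C5a 1 and 7, beside 52.7%, 46.6%, 25.2% and 22.6% of all genes. IL6 rose by 3.08 in TNF (adjusted p = 1.21e-08), 2.07 in IL1b (adjusted p = 6.69e-07) and 1.61 with Epinephrine (adjusted p = 2.1e-05), and fell by 1.79 with C5a (adjusted p = 5.57e-05). CEBPB, a transcription factor of acute-phase genes, rose by 1.25 and 0.89 with the cytokines, while CEBPD rose by 0.85 in IL1b and differed by 0.18 in TNF (adjusted p = 0.0671, or 0.0136 without Control 1 and 0.00548 without TNF 1). STAT3 rose by 0.42 in TNF and 0.16 in IL1b, the latter lost under total-count scaling (adjusted p = 0.148).

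In EV-Control against Control 15 of the 23 regulators rose and 0 fell with edgeR and with DESeq2, with 1 lower at an unadjusted p under 0.05 (median 0.32, all genes -0.0074), where 21.9% of all genes passed, 12.1% as higher. Among them IL6 rose by 1.62 (adjusted p = 5.84e-08), CEBPB by 0.867 (1.32e-13) and CEBPD by 0.444 (0.00632, or 0.0541 without EV-Control 1). STAT3 did not pass (adjusted p = 0.395). Against EV-Control, 0 rose and 10 fell in EV-TNF, 0 and 11 in EV-IL1b and 2 and 14 in EV-Epinephrine, and 0 of 23 passed in EV-C5a with edgeR (1, CEBPB, without EV-Control 3, adjusted p = 0.000227). At an unadjusted p under 0.05, 1 was higher in EV-TNF and 0 in EV-IL1b, and 1 was lower in EV-C5a. Of all genes 13.3%, 14.6%, 19.7% and 0.0503% passed in these comparisons. The inhibitor gene NFKBIA, itself an NF-κB target, fell in EV-TNF, EV-IL1b and EV-Epinephrine, with -1.04 (adjusted p = 5.7e-05), -1.15 (adjusted p = 2.37e-05) and -1.98 (adjusted p = 2.45e-07). Without EV-TNF 1 the count in EV-TNF was 6. Without EV-IL1b 1 or EV-IL1b 2 that in EV-IL1b was 6 or 7, and without EV-Control 1 or EV-Epinephrine 3 that in EV-Epinephrine was 10. IL6, CEBPD and STAT3 did not pass in EV-TNF (adjusted p = 0.425, 0.442 and 0.398) or EV-IL1b (0.505, 0.176 and 0.253). In EV-Epinephrine IL6 fell by 1.45 (adjusted p = 3.66e-05) and STAT3 by 0.123 (0.0046), while CEBPD did not pass (0.0983, or 0.0443 with DESeq2). CEBPB passed in EV-TNF, EV-IL1b and EV-Epinephrine (-0.296, -0.366 and -0.374).

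Of 25 other genes of superoxide and peroxide defence 24 were tested, and in TNF 5 rose and 10 fell (median -0.11), in IL1b 6 and 10, with Epinephrine 7 and 3 and with C5a 3 and 2. Beside the 52.7%, 46.6%, 25.2% and 22.6% of all genes, the C5a count is near that share. The C5a count of 5 was 3 without C5a 1, C5a 3, Control 1 or Control 2. In EV-TNF 2 rose and 6 fell (5 genes in all without EV-TNF 1), in EV-IL1b 1 and 7 and in EV-Epinephrine 3 and 9. In EV-C5a 0 passed with edgeR. Beside these stand 13.3%, 14.6%, 19.7% and 0.0503% of all genes. SOD1, the cytosolic superoxide dismutase, differed by -0.105 in TNF (adjusted p = 0.121) and fell by 0.29 in IL1b (adjusted p = 7.32e-05). In TNF SOD1 passed as lower in the fit of only the groups compared (-0.124, adjusted p = 0.00796) and under total-count scaling (-0.38, adjusted p = 5.77e-07). The extracellular SOD3 had 1 count in all 30 libraries together. CAT, encoding catalase, fell by 0.95 in TNF (adjusted p = 6.84e-15) and 0.62 in IL1b (adjusted p = 3.28e-10).

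Among the 3 genes whose group means of log2 CPM over the 10 groups were most like those of each member, by Pearson's r among 14965 genes, were SEMA3C (0.996) and FMNL2 for PTX3, CXCL6 (0.989), SLC39A8 and RBM19 for TNFAIP6, C3 (0.986), MMP12 and DSE for SAA1 and CXCL6 (0.989), MMP12 and CFB for SAA2. For HAS2 they were IL1A (0.977), HIF1A and KDM3A, for CD44 SKIL (0.99), HSD11B1 and EIF5B, and for SOD2 CCL2 (0.991) and WTAP. For all members but HAS2 the 2 cytokine groups hold the highest of these 10 means, and Spearman's coefficient named other genes. Among the members r was highest for SAA1 with SAA2 (0.994) and lowest for SAA1 with HAS2 (0.666). SAA1 and SAA2 share sequence, and SOD2 and WTAP overlap, so shared reads may enter the likeness of these pairs. Their part was not tested.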

How the data were processed

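RNeasy RNA (after QIAshredder lysis) went into libraries of the NEBNext Ultra RNA kit, per the labels' protocols. The authors deposited raw read counts per Ensembl gene, with no normalization. FastQC, STAR, DESeq2, R 4.4.1 and hg38 are named per the submitters' processing notes, and the counting program, the annotation and the use of strand are not given in the sources used here. Of 63147 lines, 4 without a gene ID (0.000789% to 0.00164% of counts), 2 without counts and repeats of 3 IDs were left out. Replicate pairs differed beyond sampling noise (chi-square per gene 2.04 to 12.9). The value reached 12.9 in Epinephrine and 10.1 in EV-Control, the reference of the vesicle comparisons, and at most 5.13 in any other group.

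Counts were tested in R 4.3.3 with edgeR 4.0.16 (filterByExpr, trimmed mean of M-values, robust quasi-likelihood test, two-sided, Benjamini-Hochberg adjustment over all genes, threshold 0.05). Fits used the 15 direct libraries (15908 genes), the 15 vesicle libraries (15918) or all 30 (16691, for EV-Control against Control and vesicle minus direct responses). All 7 members passed the filter except TNFAIP6 in the vesicle fit. In the other fits TNFAIP6 passed it only through the TNF and IL1b libraries. The fitting script was first tested on simulated data. Alternatives were DESeq2 1.42.0, other scaling, filters and fits, a replicate block, summed SAA genes and symbols, and each library left out.

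Members and gene lists were chosen with earlier results of these data known. Members, HAS1, HAS3, HAS2-AS1, SAA4, SAA2-SAA4, SOD1, SOD3, CRP, IL6, CEBPB, CEBPD and STAT3 were named whatever they did. Of other list genes up to 3 rises and 3 falls per list and comparison were eligible (adjusted p under 0.05, at least 5 CPM, no overlap). WTAP was named as overlapping SOD2. Likeness used log2 CPM with a prior count of 2, and some of the most like genes are not reported here.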

Additional observations from a re-analysis of the deposited data

Results flagged for a closer look

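By a test of the difference (edgeR's quasi-likelihood test, all 30 libraries), the vesicle response minus the direct response to epinephrine was -1.45 for PTX3, -3.75 for HAS2, -0.916 for CD44 and -1.88 for SOD2 on the log2 scale, and that to C5a was -0.177 for CD44. The C5a value did not hold without C5a 1, Control 2 or EV-Control 1.

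For TNF and IL1b the difference was not tested. Every TNF library lay above every Control library while every EV-TNF library lay below every EV-Control library for HAS2 (difference -5.39), CD44 (-1.9) and SOD2 (-4.99). The same held with IL1b for HAS2 (-3.88), CD44 (-1.74) and SOD2 (-3.8). EV-Control and Control both enter each difference, and these 3 genes were higher in EV-Control than in Control.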

How the results depend on the processing

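Among the alternative values for members' log2 fold changes, 1533 kept their side of the threshold or, where untested, moved by less than 1 SD. A further 34 no longer passed, 35 newly passed and 30 untested values moved further. The direction turned with a pass in 1 (CD44 in IL1b against TNF, 0.0957 with total-count scaling). Tested values that passed in neither fit count among the 1533 even where their direction turned. An example is SOD2 in EV-C5a, at -0.155, or 0.157 without EV-Control 1. For EV-C5a 8 genes passed, against 2 with DESeq2, 3 in the fit of all 30 libraries, in the fit of only the groups compared and at a mean of at least 50 counts, 5 with total-count scaling, 73 with no low-count filter and 2 to 175 without 1 library (175 without EV-Control 3). The count of members that passed in EV-Control against Control was 5, against 2 in the fit of only the groups compared and 3 to 5 without 1 library. In EV-TNF it was 3, against 5 in the fit of all 30 libraries and 2 to 4 without 1 library, and for the vesicle minus direct response to C5a 1, against 0 with no low-count filter and 0 to 2 without 1 library. The cause was not tested.

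Replicate numbers did not pair the libraries (no comparison had all 3 correlations of same-numbered libraries over 0.1, and every library was closest to its own number only in EV-IL1b and EV-Epinephrine against EV-Control). With a replicate block 3503 genes passed for C5a, 3912 for Epinephrine and 6 for EV-C5a, and among members SAA1 newly passed in Epinephrine (adjusted p = 0.0472), while SAA1 in EV-Control against Control (0.0643) and TNFAIP6 in Epinephrine against C5a (0.0544) did not. Depth limits TNFAIP6, HAS2 and SAA2 most, with 0 to 35 counts in each library outside the cytokine groups.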
